A study of Mus musculus with 6 samples.

Results

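The oligoadenylate synthetase (Oas) family was followed in colonic mucosa of male BALB/c mice, 1 Affymetrix Mouse Gene 2.0 ST array per mouse. The members were 8 listed genes, Oas1a, Oas1b, Oas1c, Oas1g, Oas2, Oas3, Oasl1 and Oasl2, each taken from rows (transcript clusters, the array's unit for a gene) that the platform table pairs with exactly 1 gene symbol. Such a row was found for 7 of the 8, with 1 row each, among 22180 genes on 23521 rows in all. Oas1a had none: its row is annotated to Oas1a and Oas1g together and is described here only as a shared row. The family was chosen by name, but with its genotype difference in view, since the lower Oas1g and Oas3 values of Mthfd1S+/- mice were already known; those differences are therefore given as a description, with no test.

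The groups were 4 wild-type (WT, Mthfd1S+/+) mice and 2 Mthfd1S+/- mice, which are deficient in the synthetase activity of the folate enzyme MTHFD1. All 6 had an injection of 6 mg/kg of the colon carcinogen azoxymethane (AOM), then 2 cycles of dextran sulfate sodium (DSS, which injures the colon lining) at 3%, each lasting 4 days, starting 1 and 4 weeks after AOM, and were killed at week 13; no untreated mouse was analysed here. The tissue was mucosa of normal appearance beside a tumour, from mice backcrossed to BALB/cAnN for at least 10 generations. Injection was at 3 months of age per the protocol, while the age field reads 7 months.

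Oligoadenylate synthetases are cytosolic sensors of double-stranded RNA that interferons induce. On binding such RNA they join ATP into short chains linked 2'-5', called 2-5A, a second messenger of the antiviral response. In the gut, epithelial cells and immune cells both respond to interferons, type I and type III for the epithelium, so these transcripts serve as a common readout of interferon signalling.

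The values were log2 expression as deposited, with array medians of 5.48 to 5.53, and the number of arrays limits their precision. Each row has its own probes, so a percentile of row levels, where given, describes brightness on the array and orders no transcripts by abundance. No detection call was used, and dim rows may hold background alone. In limma 0 of the 23521 rows, or 0%, passed an adjusted p of 0.05 (1363 rows had an unadjusted p under 0.05), and ordinary least squares also gave 0 (1220 rows). The targeted gene, Mthfd1, read 7.64, 7.63, 7.50 and 7.75 in WT mice against 7.96 and 7.63 in Mthfd1S+/- mice, with overlapping groups. The labels name the loss of an enzyme activity, which a transcript level does not check, so these arrays leave the genotypes unchecked. The label of colonic mucosa was checked against its markers: the dimmest of 10 epithelial markers lay at percentile 97.4 of row levels, and the dimmest of 10 smooth muscle markers at percentile 83.8, so smooth muscle transcripts were bright as well; which smooth muscle they came from was not tested.

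Oas1g encodes an active small synthetase. Its row (transcript cluster 17452115) read 9.76 in WT mouse 1, 9.47 in WT mouse 2, 9.22 in WT mouse 3 and 8.86 in WT mouse 4, beside 8.55 and 8.65 in the first and second Mthfd1S+/- mouse. Both Mthfd1S+/- mice were below every WT mouse, with WT mouse 4 the nearest. The WT mean was 9.33 ± 0.38 (SD, n = 4) and the Mthfd1S+/- mean 8.60 ± 0.074 (SD, n = 2), a log2 difference (Mthfd1S+/- minus WT, as throughout) of -0.72 ± 0.21 (SE), or 1.65-fold. In whole tissue, fewer cells of a type and less RNA per cell cannot be told apart. The row shared by Oas1a and Oas1g (transcript cluster 17452126) read 7.65, 7.56, 7.50 and 6.98 in WT mice and 6.96 and 6.75 in Mthfd1S+/- mice. Its groups did not overlap either, though the first Mthfd1S+/- mouse and WT mouse 4 were nearly equal. The difference on the shared row was -0.57 ± 0.19 (SE). Oas1a, the other active small synthetase, cannot be separated from Oas1g with these rows, and the reverse may hold too, since probes of the Oas1g row could also read Oas1a; the probe sequences were not used.

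The start regions of the members are shown for their response elements; they lie outside what transcript probes read, and say nothing of how the probes tell Oas1a from Oas1g. Over the 250 bases before their annotated starts (RefSeq, GRCm38.p6), 82.8% of aligned positions were identical, against 41.2% to 48.2% for the other 14 pairs among the 6 members with a promoter window. The promoter windows were searched for the core of the interferon-stimulated response element, through which interferons induce many genes, spelled here as GAAA, any 2 bases, GAAA, on both strands, with overlaps allowed. Capitals mark every base of a match. The Oas1a stretch lies inside a longer model of that gene. All 4 stretches are shown on the minus strand of chromosome 5, because the genes lie on it: Oas1g at chr5:120887614-120887643, Oas1a at chr5:120907528-120907557, Oas3 at chr5:120777690-120777769 and Oas1c at chr5:120812575-120812634.

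Oas1g: tgcccttctcggGAAATGGAAACTGAAAat

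Oas1a: tgcccttctcggGAAATGGAAACTGAAAat

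Oas3: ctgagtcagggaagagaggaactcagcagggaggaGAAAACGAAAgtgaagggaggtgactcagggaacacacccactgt

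Oas1c: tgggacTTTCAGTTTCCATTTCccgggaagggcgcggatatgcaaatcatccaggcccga

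The 30 bases of Oas1g and Oas1a were the same, with 2 overlapping matches in each. These end 9 and 3 bases before the annotated start of Oas1g, and 11 and 5 bases before that of Oas1a. Oas3 had 1 match, 75 to 66 bases before its start. Oas1c had 2 overlapping matches on the opposite strand, between 114 and 99 bases before its start, in the stretch that separates it from its neighbour Oas1b. In windows from 250 bases before to 50 after a start, 4 of the 6 members held a match (Oas1a, Oas1c, Oas1g and Oas3, not Oasl1 or Oasl2), where 3.44% of 32851 windows did. It was present in 19 of 44 windows of other interferon-stimulated genes and in 8 of 15 of interferon ligands. Nucleic acid sensors had it in 3 of 11 windows, and interferon signalling and regulator genes in 3 of 15. It was in 0 of 5 windows of interferon receptors, 0 of 4 of the 2-5A pathway and 0 of 2 of other Oas1 paralogs (Oas1f and Oas1h). A gamma-activated site, spelled TTC, any 3 bases, GAA, was found in 1 of the 6, Oas1a, where 8.30% of windows held it. A match is a run of letters and not a measured binding site.

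Oas2 and Oas3 encode the larger synthetases, built from repeated synthetase units. Oas2 read 8.56, 7.88, 7.96 and 7.19 in WT mice and 7.09 and 7.47 in Mthfd1S+/- mice. Its groups overlapped, because WT mouse 4 lay between the Mthfd1S+/- mice. The means were 7.90 ± 0.56 (SD, n = 4) and 7.28 ± 0.27 (SD, n = 2), a log2 difference of -0.62 ± 0.31 (SE), and of -0.40 without WT mouse 1. Oas3 read 7.11, 6.71, 7.02 and 6.46 in WT mice and 6.32 and 6.31 in Mthfd1S+/- mice. Here both Mthfd1S+/- mice were below all WT mice and nearly equal to each other. The Oas3 means were 6.83 ± 0.30 (SD, n = 4) and 6.31 ± 0.0036 (SD, n = 2), a log2 difference of -0.51 ± 0.17 (SE).

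Oasl1 and Oasl2 are synthetase-like genes whose products carry ubiquitin-like domains; mouse Oasl2 keeps synthetase activity, while Oasl1 lacks it and is known to hold back translation of Irf7. Oasl2 read 9.14, 8.78, 9.04 and 8.04 in WT mice and 7.93 and 8.12 in Mthfd1S+/- mice. WT mouse 4 again lay between the Mthfd1S+/- mice, and the other 3 WT mice were above both. The Oasl2 means were 8.75 ± 0.50 (SD, n = 4) and 8.03 ± 0.13 (SD, n = 2), a log2 difference of -0.72 ± 0.27 (SE). Oasl1 read 9.23, 9.09, 9.32 and 8.73 in WT mice and 8.94 and 8.67 in Mthfd1S+/- mice. The groups overlapped, with the first Mthfd1S+/- mouse above WT mouse 4. The log2 difference of Oasl1 was -0.28 ± 0.16 (SE), and -0.15 without the second Mthfd1S+/- mouse.

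Oas1b is the flavivirus resistance gene of mice; many laboratory strains carry a truncated form without synthetase activity, and RefSeq lists the C57BL/6J gene as a transcribed pseudogene. Its row read 5.97, 5.70, 5.64 and 5.23 in WT mice and 5.20 and 5.34 in Mthfd1S+/- mice. WT mouse 4 lay between the Mthfd1S+/- mice, as for Oas2 and Oasl2. The Oas1b difference was -0.37 ± 0.18 (SE), on a row at percentile 41.4 of levels. Oas1c read 5.08, 4.61, 4.42 and 4.79 in WT mice and 4.62 and 4.79 in Mthfd1S+/- mice. Oas1c alone among the 7 had both Mthfd1S+/- values inside the WT range, with a difference of -0.019 ± 0.17 (SE) on a row at percentile 25.5. The response element letters in its start region lie on the opposite strand, in the stretch between Oas1c and Oas1b. Oas1b had no promoter window, and which gene the letters belong to was not tested.

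The other Oas1 paralogs, which were not among the listed genes, were dim. Oas1e, Oas1f and Oas1h had differences of -0.019, 0.11 and -0.051, with overlapping groups and mean levels from 3.05 to 4.52. Oas1d, known from oocytes, read 2.60, 2.62, 2.81 and 2.82 in WT mice and 3.21 and 3.16 in Mthfd1S+/- mice. It was the only row of the family on which both Mthfd1S+/- mice stood above all WT mice. The difference was 0.47 ± 0.098 (SE), with an adjusted p of 0.837 in limma, on a row near the bottom of the scale (percentile 6.11). The share of all rows that stood above in this way was not counted, so nothing is read from it. In the RefSeq order of chromosome 5, Oas2, Oas3, Oas1e, Oas1c, Oas1b, Oas1f, Oas1h, Oas1g, Oas1a and Oas1d follow each other with only the pseudogene Gm7573 between the last of them, so the low values of Oas2, Oas3 and Oas1g came from the same run of genes as the values of Oas1c and Oas1e. Flanking genes had differences of 0.039 (Dtx1, a Notch pathway ligase) and -0.011 (Rph3a, of vesicle traffic).

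**Figure D1:**
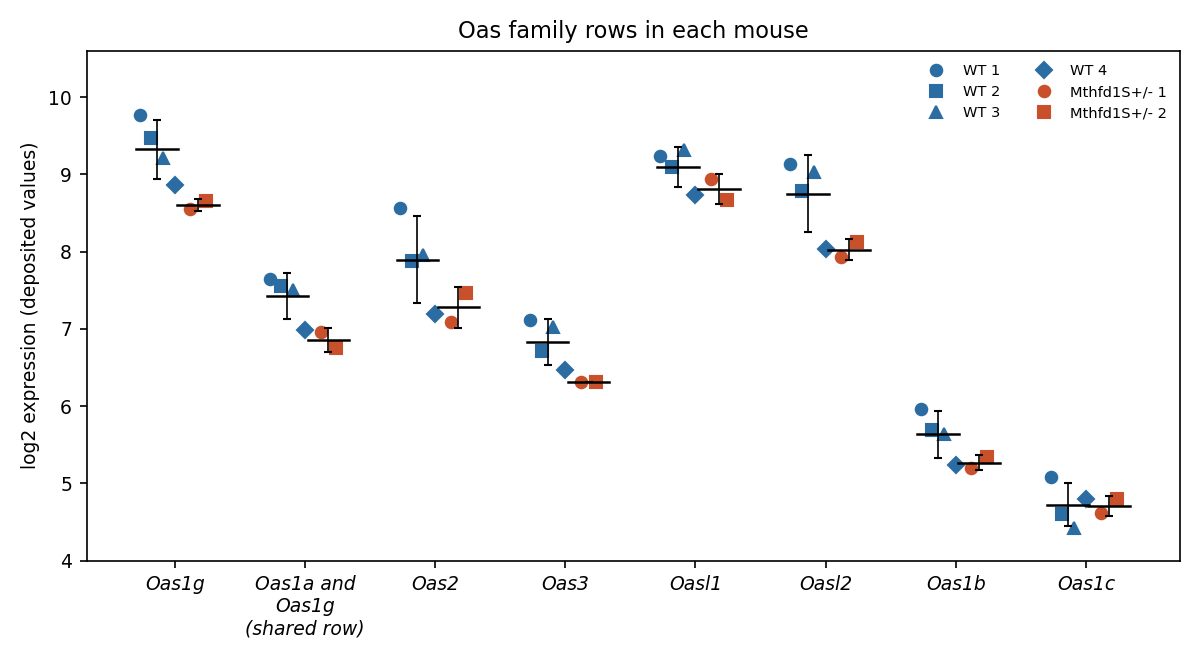
Deposited log2 expression of 7 Oas genes and of the row shared by Oas1a and Oas1g, 1 point per mouse (blue, 4 WT; orange, 2 Mthfd1S+/-), with horizontal bars for group means and error bars for the SD. Both Mthfd1S+/- mice lie below all WT mice for Oas1g, Oas3 and the shared row; for Oas2, Oasl2 and Oas1b WT mouse 4 falls between them.

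The spread of the family among WT mice uses no Mthfd1S+/- value, but the same WT values set the WT mean of the genotype contrast. The SD over the 4 WT mice was 0.56 for Oas2, 0.50 for Oasl2, 0.38 for Oas1g, 0.30 for Oas3, 0.30 for Oas1b, 0.28 for Oas1c and 0.26 for Oasl1. The median SD over all tested rows was 0.114. All 7 genes lay between percentile 92.7 (Oasl1) and percentile 99.7 (Oas2) of WT spread. WT mouse 1 was the highest WT mouse for 6 of the 7 genes (WT mouse 3 for Oasl1), and WT mouse 4 the lowest for 6 of the 7 (WT mouse 3 for Oas1c). From WT mouse 1 to WT mouse 4, Oas2 spanned 1.37 on the log2 scale, more than its difference between genotypes.

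Members with a mean of at least 6, from Oas3 at 6.66 upward and without Oas1b at 5.51, were averaged after centring each on its mean over the 6 mice. In WT mice this 5-gene profile stood at 0.57 (mouse 1), 0.20 (mouse 2), 0.32 (mouse 3) and -0.33 (mouse 4), and in Mthfd1S+/- mice at -0.42 and -0.34. WT mouse 4 was thus close to the Mthfd1S+/- mice, with the other 3 WT mice apart from all of them. Pearson r between pairs of the 5 genes ran from 0.74 (Oas1g with Oasl1) to 0.97 (Oas3 with Oasl2) over the 6 mice, and from 0.69 to 0.97 over the 4 WT mice alone. These values are descriptive: the points share arrays and normalization, and the 6-mouse values include the genotype contrast.

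**Figure D2:**
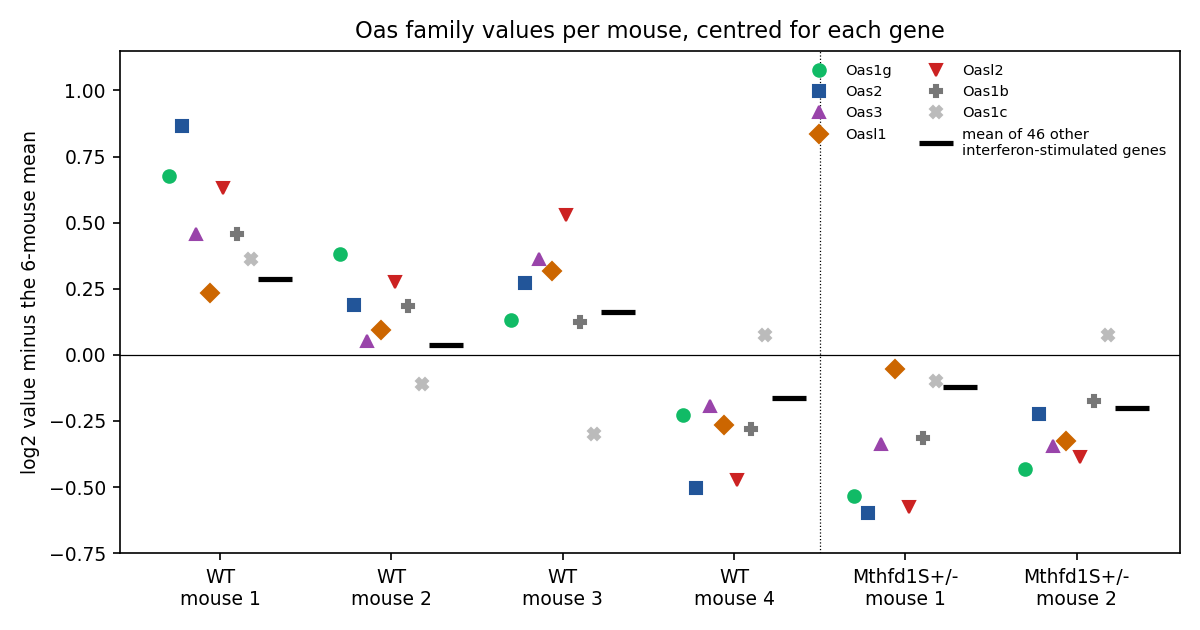
Log2 value of each member minus its mean over the 6 mice, by mouse, with a black bar for the mean of 46 other interferon-stimulated genes. The 5-gene profile behind these points is 0.57 in WT mouse 1 and -0.33 in WT mouse 4, beside -0.42 and -0.34 in the Mthfd1S+/- mice; Oas1c does not follow the others.

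As a family, the 7 genes had a median log2 difference of -0.51, where the median of all tested rows was 0.012. All 7 differences were below 0, that of Oas1c by 0.019 only, and it turned to 0.011 when arrays were quantile normalized again and to 0.0083 when they were centred on their medians. Over all rows 46% were below 0. A difference of at least 1.5-fold lower was seen for 3 of the 7 (Oas1g, Oas2 and Oasl2), against 0.289% of all rows, and both Mthfd1S+/- mice were below all WT mice for 2 of the 7 (Oas1g and Oas3), against 6.04%. Nothing is read from these shares, since the contrast was known when the family was chosen. Of the WT mice, WT mouse 4 overlapped with the Mthfd1S+/- mice for Oas2, Oasl1, Oasl2 and Oas1b. Without it, both Mthfd1S+/- mice lay below the other 3 WT mice for 6 of the 7 genes, and the family median was -0.63. That mouse was picked for its overlap, so leaving it out favours such a separation. The share of all rows was not counted for 3 WT mice, and nothing is read from the 6 genes. Set against WT mouse 4 alone, the Mthfd1S+/- mean was lower by 0.26 for Oas1g and 0.15 for Oas3, by 0.087 for Oas1c and by 0.0085 for Oasl2. It was higher than WT mouse 4 by 0.091 for Oas2, 0.076 for Oasl1 and 0.035 for Oas1b. The difference of the 5-gene profile was -0.57 with all mice.

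**Figure D3:**
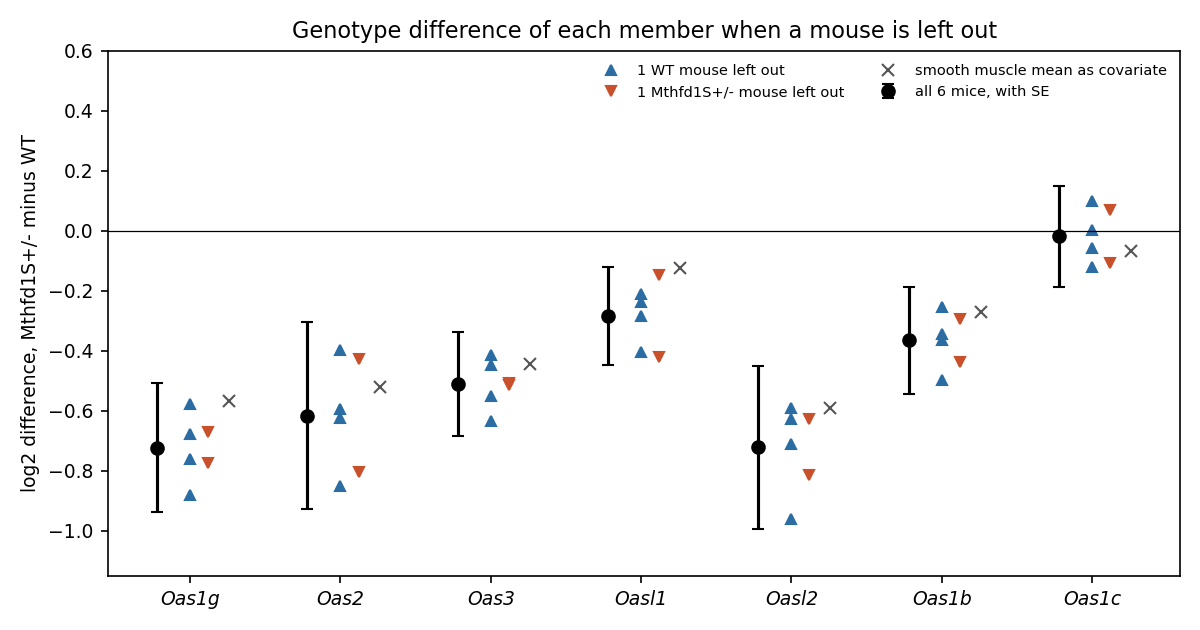
Log2 difference (Mthfd1S+/- minus WT) of each member with all 6 mice (black, with SE), with 1 mouse left out in turn (triangles) and with the mean of smooth muscle markers as a covariate (crosses). The median of the 7 genes ranges from -0.63 without WT mouse 4 to -0.40 without WT mouse 1; Oas1c lies on both sides of 0.

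Markers of several cell types also differed between the mice. Mean centred levels of the 10 epithelial markers were 0.096, 0.010, 0.050 and -0.030 in WT mice and -0.00067 and -0.13 in Mthfd1S+/- mice, with 9 of 10 lower in Mthfd1S+/- mucosa. The 10 smooth muscle markers stood at -0.13, -0.26, -0.020 and 0.10 in WT mice and -0.069 and 0.37 in Mthfd1S+/- mice, all 10 higher by group mean. When the smooth muscle mean entered the model, the family median was -0.45, and the differences were -0.57 for Oas1g, -0.59 for Oasl2, -0.52 for Oas2 and -0.45 for Oas3, while Oasl1 had -0.13. All 7 enteroendocrine markers were also higher in Mthfd1S+/- mucosa, at -0.31 to 0.090 in WT mice and 0.12 and 0.27 in Mthfd1S+/- mice. All 7 adipocyte markers were lower, at -0.41 to 1.25 in WT mice, where WT mouse 3 was highest, and -0.63 and -0.52 in Mthfd1S+/- mice. All 7 fibroblast markers were higher, at -0.31 to 0.10 in WT and 0.064 and 0.23 in Mthfd1S+/- mice, and so were all 7 markers of enteric neurons and glia, at -0.31 to 0.15 in WT and 0.064 and 0.33 in Mthfd1S+/- mice. Of 7 B and plasma cell markers 6 were lower, at -0.022 to 0.24 in WT mice and -0.072 and -0.12 in Mthfd1S+/- mice, both below every WT mouse. The part of these lists other than smooth muscle in the Oas values was not tested. The 8 T and NK cell markers stood at -0.11 to 0.12 in WT and at -0.054 and -0.0087 in Mthfd1S+/- mice. The 9 macrophage and dendritic cell markers stood at -0.13 to 0.11 in WT and at 0.026 and -0.0077 in Mthfd1S+/- mice. Of 6 listed markers of plasmacytoid dendritic cells, a main source of type I interferon, 3 were lower. That list describes these cells poorly, since Klk1 lay near the top of the scale, Tcf4 is broadly expressed, Bst2 is itself induced by interferon and the defining marker Siglech was dim (percentile 25.5).

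Upstream of the family stand the interferons and their receptors. Of 15 measured interferon ligand genes 9 were lower and 6 higher in Mthfd1S+/- mucosa (median -0.011), and 0 passed in either direction in limma. This median has no settled sign: it was 0.017 after quantile normalization, 0.016 after centring, with 7 of 15 lower in each, and 0.043 without the second Mthfd1S+/- mouse. Ifnb1, the main beta interferon, had a mean of 3.62 in WT and 3.81 in Mthfd1S+/- mucosa, low on the scale. Ifnk, an interferon of epithelia, had -0.25 ± 0.18 and Ifna2, an alpha interferon, 0.28 ± 0.12 (SE). Both Mthfd1S+/- mice were above all WT mice for Ifna2, a dim row, and for no other ligand. As the share of all rows in that direction was not counted, nothing is read from this. Among 6 receptor genes 5 were lower (median -0.049) and 0 passed. The receptor median was -0.080 without the first Mthfd1S+/- mouse, -0.030 without the second and -0.021 after centring on array medians, where 4 of 6 were lower. The type I receptor chains Ifnar1 and Ifnar2 had differences of 0.088 ± 0.085 and -0.0089 ± 0.11 (SE). Ifnlr1, the type III receptor chain of epithelium, had -0.20 ± 0.11 (SE), with both Mthfd1S+/- mice (6.64 and 6.56) just below the lowest WT mouse (6.65). It was the only 1 of the 6 receptors with both below, against 6.04% of all rows, and nothing is read from 1 gene.

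Of 14 signalling and regulator genes 11 were lower (median -0.14) and 0 passed. Usp18, which dampens type I interferon signalling and is itself induced, had -0.68 ± 0.36 (SE). Its values were 7.92, 6.80, 7.44 and 6.43 in WT mice and 6.61 and 6.33 in Mthfd1S+/- mice, the same order of high and low mice as for Oasl2 in WT. The transcription factors Stat2, Irf9 and Irf7 had -0.20 ± 0.18, -0.17 ± 0.17 and -0.26 ± 0.19 (SE). The groups overlapped for all 3. Irf8, a factor of myeloid and B cells, had -0.20 ± 0.090 (SE) and Tyk2, a receptor kinase, -0.16 ± 0.084 (SE). For these, 2 of the 14 (14.3%), both Mthfd1S+/- mice were below all WT mice, against 6.04% of all rows. Nothing is read from so few genes. Tyk2 was added after its values were seen. The list median moved with the Mthfd1S+/- mice: it was -0.24 without the first of them, -0.031 without the second and 0.019 with the smooth muscle covariate. Downstream, the 3 measured genes of the 2-5A pathway list spanned -0.057 to 0.023, with 0 past the threshold. Abce1, an ATP-binding protein of ribosome recycling, had -0.057 ± 0.10, and Pde12 and Akap7, which break down 2-5A, had 0.023 ± 0.095 and -0.047 ± 0.088 (SE).

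Other nucleic acid sensors were mixed. Of 13 measured, 9 were lower (median -0.16), 0 passed, and both Mthfd1S+/- mice were below all WT mice for 4 of them (30.8%, against 6.04% of all rows). Those were Zbp1, a sensor of Z-form nucleic acid (-0.53 ± 0.14), the helicases Dhx58 (-0.44 ± 0.15) and Ifih1 (-0.31 ± 0.11), and the RNA-activated kinase Eif2ak2 (-0.34 ± 0.12, all SE). Both Mthfd1S+/- mice were above all WT mice for 1 sensor, Tlr7 (0.23 ± 0.11, SE), named after its values were seen. Here too the share of all rows was not counted, and nothing is read from it. The sensor median was -0.10 without WT mouse 1. Of 46 other interferon-stimulated genes, 40 were lower and 6 higher (median -0.22), and 0 passed in limma. For 16 of them (34.8%, against 6.04% of all rows) both Mthfd1S+/- mice were below all WT mice. For 1, Isg20 (0.15 ± 0.12, SE), named after its values were seen, both were above all WT mice. The share of all rows above was not counted, and nothing is read from Isg20. With the smooth muscle covariate 34 of the 46 were lower and the median was -0.13. Their mean centred level was 0.29, 0.039, 0.16 and -0.16 in WT mice and -0.12 and -0.20 in Mthfd1S+/- mice, so WT mouse 4 again lay with the Mthfd1S+/- mice. The largest differences in this list were those of Ifi44l (-0.68 ± 0.24), the antiviral GTPase gene Mx2 (-0.66 ± 0.24), Rtp4 (-0.65 ± 0.24) and Ifi27l2b (-0.62 ± 0.13, all SE). Lower values of such genes were known before the list was written, so the list is no independent evidence for the family's direction.

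**Figure D4:**
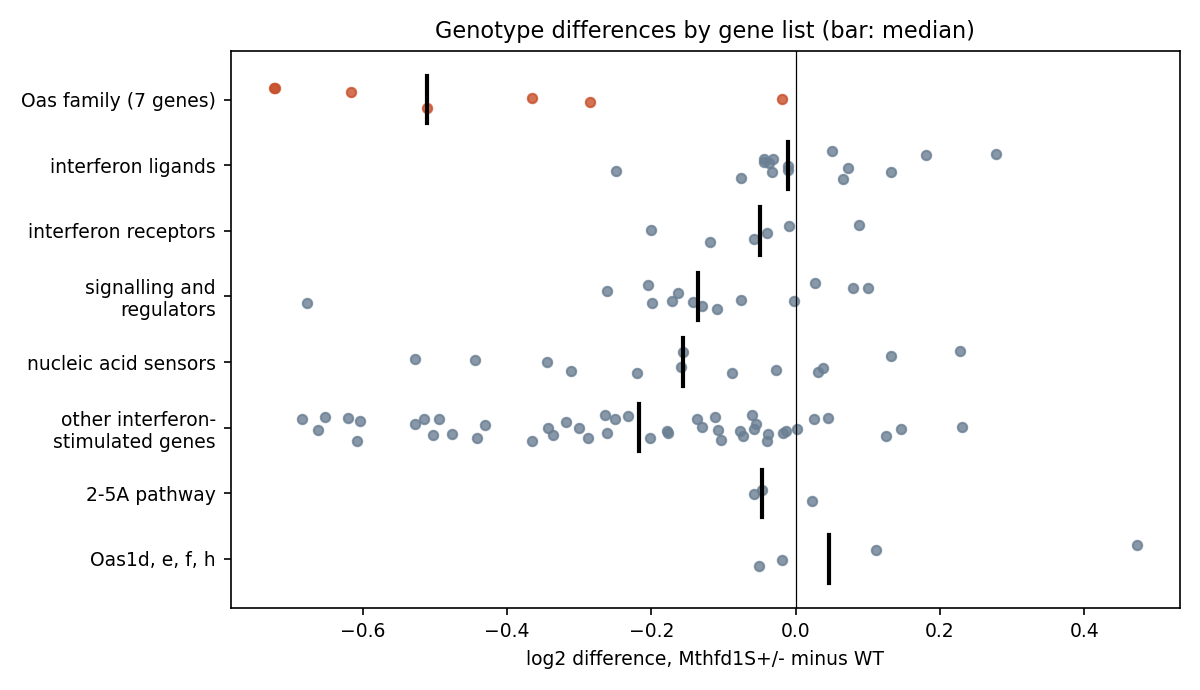
Log2 difference (Mthfd1S+/- minus WT) of every measured gene in each list, 1 point per gene, with a black bar for the median. The 7 Oas genes have a median of -0.51 (Oas1c, at -0.019, turns sign when arrays are renormalized) and the other interferon-stimulated genes -0.22, while the ligands, at -0.011, also turn sign on renormalization.

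The rows whose pattern over the 6 mice was most like the 5-gene profile were sought among 740 rows outside the family with a mean of at least 6 and an SD of at least 0.25. The 10 highest had Pearson r from 0.93 to 0.995 with the profile, and from 0.92 to 0.998 over the 4 WT mice alone. First was Rtp4, at 8.68, 8.36, 8.40 and 7.67 in WT mice and 7.63 and 7.62 in Mthfd1S+/- mice (r = 0.995). It is a chaperone-like gene induced by interferon. Other interferon-stimulated genes of the list among the 10 were Ddx60, Isg15, Herc6 and Ifi27l2b. Outside it were Hbegf, a ligand of the EGF receptor (r = 0.97), Errfi1, a feedback inhibitor of that receptor (r = 0.97), Apol9b, Trim40 and the row named Mir680-2. Hbegf read 8.14, 7.68, 7.86 and 6.90 in WT mice and 7.07 and 6.78 in Mthfd1S+/- mice, so it shared the low value of WT mouse 4. An r of at least 0.9 was reached by 25 of the 740 rows (3.38%) and by 7 of the 13 other interferon-stimulated genes among them. Over the WT mice alone it was reached by 53 rows (7.16%) and again by 7 of those 13 genes. Of the 46 measured genes of that list, only these 13 passed the minimum for level and SD, and the SD favours rows that vary over these same mice. The 6-mouse profile also holds the genotype contrast, and lower values of such genes were known before the list was written. The 7 of 13 genes are therefore no independent evidence of a shared pattern. These r values rest on 6 or 4 points that share arrays and are given as a description.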

How the data were processed

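Per the submitters' processing notes, Affymetrix Expression Console made the deposited table (version, algorithm and genome build: not given in the sources used here). As deposited, the values are log2 expression, judged from their range of 1.06 to 13.5. Of 41345 rows 23521 had 1 gene symbol and were tested, 1814 had several and 16010 none; only the row shared by Oas1a and Oas1g was used from these, with its SE from a fit over all rows. Genotypes were compared across all tested rows with limma (version 3.58.1, R 4.3.3), using its moderated two-sided test and Benjamini-Hochberg adjustment, with 4 residual degrees of freedom and a prior of 4.35. The labels call the arrays biological replicates, 1 mouse each. A gene on several rows was represented by the row with the highest mean; no member had several. The members and gene lists were chosen with earlier results of these data known. The rule for named genes took all members, the 4 genes of each list with the largest absolute difference, Stat2, Irf7, Irf9, Ifnar1, Ifnar2 and Isg15 among those taken by role, and the 10 rows most like the family; of these the text gives those it needs, and some items are not reported here. Flanking genes and cell type markers were named by position and list. Sequences and gene order came from RefSeq (GRCm38.p6); start regions were aligned globally with Biopython 1.88. The fit was tested on simulated data. Alternatives were renormalization, no moderation, all rows, a level minimum, each mouse left out, a replicate block, the identifier letter and smooth muscle as covariates.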

Additional observations from a re-analysis of the deposited data

How the results depend on the processing

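Precision is limited by the 2 Mthfd1S+/- mice, and Oas1b, Oas1c and the other Oas1 paralogs were dim, with no detection call used. The count of 0 rows past the adjusted threshold held under all 14 alternatives, each mouse left out included. The family median of -0.51 ranged from -0.63 to -0.40 with 1 mouse left out, and was -0.49 after quantile normalization and -0.60 with the replicate block. The 5 genes of the profile had differences below 0 in all 70 values these alternatives gave. Not all of these are separate checks: no moderation, all rows and the level minimum leave each gene's difference unchanged, so their values repeat the main ones. Replicate numbers were taken as names and not as pairs. Deviations of same-numbered mice had r of 0.12 and -0.044. With 2 Mthfd1S+/- mice their deviations mirror each other, so these r values cannot decide whether mice were paired. The identifiers of WT mouse 1 and the first Mthfd1S+/- mouse carry the letter A, and all others B. What the letter stands for was not tested, and with it as covariate the family median was -0.57. The replicate block gave 0 rows past the threshold and differences of -0.94 for Oas2, -0.56 for Oas1b and -0.14 for Oas1c. With this replicate block the median of Oas1d, Oas1e, Oas1f and Oas1h was -0.044 in place of 0.047. For signalling and regulators the median of -0.14 ranged from -0.24 to -0.031 with 1 mouse left out and was 0.019 with the smooth muscle covariate. Of the 10 most alike rows, 1 remained with no minimum for level or SD, and 2 with WT mice only. The cause of these shifts was not tested. Alternatives that use other rows of a gene gave no value, as no member had several rows, and Oas1c fell out under the level minimum.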
